A study of Mus musculus with 12 samples.

Results

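The genes of glucose uptake, glycolysis, lactate and pyruvate handling, fructose bisphosphatase and glycogen were examined in the organ of Corti of mice lacking clarins. The set held 36 genes chosen by symbol from the 55348 in the count tables, namely 4 glucose transporters, 11 genes of upper glycolysis and its control, 8 of lower glycolysis, 4 of lactate and monocarboxylates, 4 of the pyruvate dehydrogenase step, 2 fructose bisphosphatases and 3 glycogen enzymes. All 36 passed the filter on low counts, among 19052 genes that did. Polyadenylated RNA of 12 organ of Corti samples was sequenced, 3 libraries from each of 4 genotypes, at postnatal day 21 (P21). Wild-type mice carried both clarin genes unaltered and came from breedings of their own, so breeding and genotype cannot be told apart in any comparison with them. Clrn1-/- mice had lost an exon of Clrn1 in all tissues, after a cross of floxed mice with PGK-cre mice, whose Cre acts from the embryo on. Clrn2-/- mice were homozygous for clarinet, a constitutive early stop codon in Clrn2. Clrn1-/-Clrn2-/- mice came from crosses of these lines and carried both defects. Line and genotype therefore cannot be told apart between the mutants either. How many mice went into a library is not given in the sources used here, and the p-values below measure the spread between these libraries only.

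Glycolysis splits glucose into pyruvate in the cytosol and yields ATP without oxygen. Glucose enters through carriers of the Slc2a family, hexokinase and phosphofructokinase commit it to the pathway, and pyruvate leaves either as lactate, through lactate dehydrogenase and monocarboxylate carriers, or into mitochondria through pyruvate dehydrogenase. Most of these steps have several isoenzymes made by separate genes, whose use differs between cell types. In the cochlea the organ of Corti lies away from the blood vessels, and glucose reaches hair cells by way of their supporting cells.

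Levels are given as counts per 1000000 (CPM) after TMM scaling, in the order of library 1, 2 and 3, and per length (FPKM, the CPM divided by the exon length in kilobases) where genes are compared with each other. A gene was called over-expressed or under-expressed at an edgeR adjusted p of at most 0.05, taken over all 19052 genes tested, and a change of at least 1.5-fold. Counts on genes were between 30008679 and 41049302 per library. Clrn1 was at 23.8 to 28.6 CPM in wild-type and 25.8 to 31.5 in Clrn2-/-, against 2.69 to 3.04 in Clrn1-/- and 1.77 to 2.71 in Clrn1-/-Clrn2-/- mice. Clrn2 was at 1.89 to 3.24 CPM in wild-type, 1.04 to 1.38 in Clrn2-/- and 0.921 to 1.18 in Clrn1-/-Clrn2-/- mice. In Clrn1-/- mice, whose Clrn2 was not targeted, it was at 0.854 to 1.04, so this level does not mark the Clrn2 genotype. Replicate libraries were not copies of one another, since their counts varied 4.02 to 16.6 times as much as counting error allows.

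The larger part of the 36 genes was lower in Clrn1-/-Clrn2-/- than in wild-type mice, mostly by less than 1.5-fold, and a few isoenzymes went the other way. Together the 36 genes took 0.913% to 0.949% of the counts in wild-type libraries, 0.778% to 0.83% in Clrn1-/-, 0.823% to 0.899% in Clrn2-/- and 0.761% to 0.774% in Clrn1-/-Clrn2-/- libraries. The double mutant libraries were below all wild-type ones, and so were the libraries of each single mutant. In Clrn1-/-Clrn2-/- mice 28 of the 36 had a negative log2 fold change, with a median of -0.22 over the 36 beside 0.0010 over all genes tested. All 3 double mutant values lay below all 3 wild-type values for 25 genes and above them for 7. How many of all genes tested parted in this way was not counted, so these counts have no background beside them.

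Under-expression at 1.5-fold was called for 4 of the 36 in Clrn1-/-Clrn2-/- mice (11.1%, where 4.02% of all genes tested were called), namely Pfkp, Pgam2, Eno2 and Pygl, and over-expression for 6 (16.7%, where 5.88% of all genes were called), namely Slc2a10, Hk2, Hk3, Pdk4, Fbp1 and Fbp2. By the adjusted p alone 22 of the 36 were lower (61.1%, against 17.9% of all genes) and 7 were higher (19.4%, against 19.1% of all genes), the last count being close to the background. In Clrn1-/- mice 3 were called over-expressed (8.33%, against 3.52% of all genes), Hk3, Fbp1 and Fbp2, and 3 under-expressed (8.33%, against 3.7%), Gapdh, Pgam2 and Eno1. The adjusted p alone was passed there by 6 higher genes (16.7%, against 13.6% of all genes) and by 12 lower ones (33.3%, against 13.3%). In Clrn2-/- mice Fbp2 alone was called over-expressed (2.78%, against 1.24%) and Pgam2 alone under-expressed (2.78%, against 1.42%). The adjusted p alone was passed there by 2 higher genes (5.56%, against 7.14% of all genes) and by 8 lower ones (22.2%, against 7.07%). The medians over the 36 were -0.085 in Clrn1-/- and -0.12 in Clrn2-/- mice, beside -0.0031 and -0.0025 over all genes. Scaling by library size alone moved the first to -0.041 and the median in Clrn1-/-Clrn2-/- mice to -0.18.

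**Figure D1:**
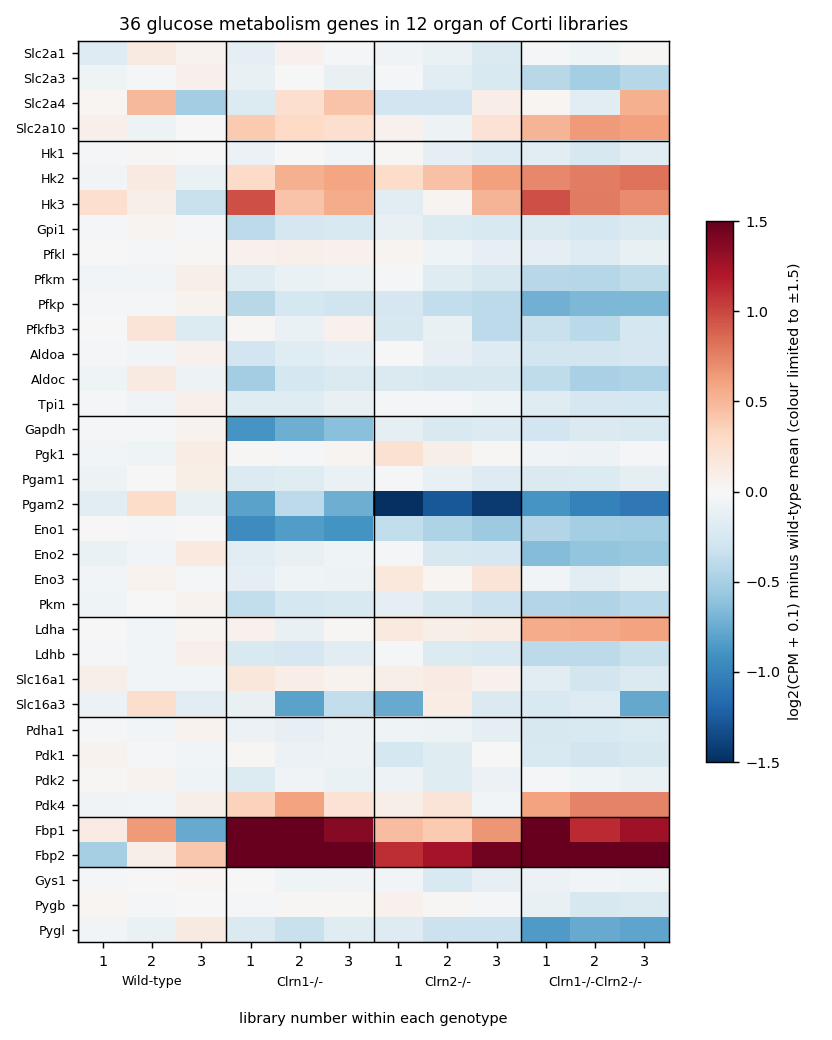
Heat map of the 36 genes (rows, ordered by role and parted by lines) in the 12 libraries (columns, 3 per genotype), with colour for log2(CPM + 0.1) minus the wild-type mean, limited to 1.5 in either direction. Red cells of Hk2, Ldha, Pdk4, Fbp1 and Fbp2 stand among mostly blue rows in the double mutant, and Gapdh and Eno1 are darkest blue in Clrn1-/- libraries.

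The main carrier by level per length, Slc2a1, which makes the basal transporter GLUT1, did not pass the test in any comparison. It was at 157, 196 and 186 CPM in wild-type and 177, 171 and 181 in Clrn1-/-Clrn2-/- mice, with a log2 change of -0.03 ± 0.071 (adjusted p = 0.802 by edgeR). Slc2a3, whose product GLUT3 is known as the carrier of neurons, was lower in Clrn1-/-Clrn2-/- mice, with a log2 change of -0.46 ± 0.056 (adjusted p = 9.9e-06 by edgeR) and no overlap with wild-type, a change under 1.5-fold. Slc2a10, which encodes a less studied carrier of the same family (GLUT10), moved the opposite way. Its wild-type libraries were at 10.5, 9.45 and 10 CPM and those of Clrn1-/-Clrn2-/- mice at 14.3, 15.6 and 15.4, while Clrn1-/- libraries were in between at 13.1, 12.3 and 11.9. The rise in the double mutant, 0.59 ± 0.083 (adjusted p = 3.3e-05 by edgeR), was just past 1.5-fold and fell to between 0.55 and 0.58 when wild-type library 2 or 3 or double mutant library 2 or 3 was left out. The share of Slc2a3 in the summed FPKM of the 4 carriers went from 16.3% ± 1.3 (SD, n = 3) in wild-type to 12.2% ± 0.27 (SD, n = 3) in double mutants. Slc2a4, the insulin-responsive carrier of muscle and fat, ranged from 4.2 to 8.52 CPM in wild-type libraries alone and passed the test in no comparison.

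Hexokinase traps glucose in the cell by phosphorylation, and its isoenzymes moved in opposite directions. Hk1, the form of brain and other constantly active tissues (chr10:62268855-62379908), held 235, 242 and 240.3 CPM in wild-type and 212, 202 and 213 in Clrn1-/-Clrn2-/- mice, a log2 change of -0.19 ± 0.051 (adjusted p = 0.00656 by edgeR). Hk2, the inducible form (chr6:82725025-82774454), was at 12.5, 14.1 and 12 CPM in wild-type, 15.6, 18.6 and 19.4 in Clrn1-/-, 15.5, 17.5 and 19.6 in Clrn2-/- and 21.1, 21.9 and 22.5 in Clrn1-/-Clrn2-/- mice. All 9 mutant libraries were above all 3 wild-type ones, and the double mutant libraries were above every other library. The log2 fold changes of Hk2 were 0.48 ± 0.096 (adjusted p = 0.00162 by edgeR) in Clrn1-/-, 0.45 ± 0.096 (adjusted p = 0.00516 by edgeR) in Clrn2-/- and 0.77 ± 0.095 (adjusted p = 1.1e-05 by edgeR) in Clrn1-/-Clrn2-/- mice, or 1.7-fold in the last. Measured per length, Hk2 made up 7.05% ± 0.49 (SD, n = 3) of the hexokinase FPKM in wild-type and 12.7% ± 0.52 (SD, n = 3) in double mutants, with 9.7% ± 0.84 and 10% ± 1.7 (SD, n = 3 each) in Clrn1-/- and Clrn2-/- mice.

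Hk3, a hexokinase best known from white blood cells (chr13:55005985-55021385), was low throughout, at 1.57, 1.4 and 1.01 CPM in wild-type, 2.66, 1.78 and 1.97 in Clrn1-/-, 1.16, 1.35 and 1.91 in Clrn2-/- and 2.65, 2.32 and 2.19 in Clrn1-/-Clrn2-/- mice. It rose in Clrn1-/-Clrn2-/- mice by a log2 change of 0.85 ± 0.22 (adjusted p = 0.0063 by edgeR), with no overlap. The call in Clrn1-/- mice, 0.68 ± 0.22 (adjusted p = 0.0316 by edgeR), was lost when wild-type library 2 or 3 or Clrn1-/- library 1 was left out and when only the compared genotypes were fitted, with a log2 fold change of 0.51 to 0.73 over those fits. Markers of macrophages moved with it. Their summed level was 138 to 177 CPM in wild-type, 216 to 231 in Clrn1-/-, 159 to 202 in Clrn2-/- and 218 to 257 in Clrn1-/-Clrn2-/- libraries, with 9 of 9 markers positive in Clrn1-/-Clrn2-/- mice and none at 0 in all libraries. Neutrophil markers had 7.74 to 20.7 CPM in wild-type, 27.3 to 30.7 in Clrn1-/-, 17.9 to 21.9 in Clrn2-/- and 14.4 to 32.6 in Clrn1-/-Clrn2-/- libraries. Only the Clrn1-/- sums lay wholly above wild-type. In the double mutant 7 of 7 tested were positive and 0 were called by edgeR, limma-voom or DESeq2, nor was any at an unadjusted p under 0.05 in edgeR. The part of these cells in the Hk3 result was not tested.

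Phosphofructokinase, the committing step, is built from the products of Pfkm, Pfkl and Pfkp. The platelet-type subunit Pfkp (chr13:6579768-6648777) fell in every mutant, from 182, 183 and 192 CPM in wild-type to 139.5, 155 and 151 in Clrn1-/-, 156, 144 and 142 in Clrn2-/- and 113, 116 and 117 in Clrn1-/-Clrn2-/- mice. The single mutants overlapped each other, and both lay between wild-type and the double mutant without touching either. Log2 fold changes were -0.32 ± 0.048 (adjusted p = 0.000131 by edgeR) in Clrn1-/-, -0.33 ± 0.048 (adjusted p = 0.000231 by edgeR) in Clrn2-/- and -0.69 ± 0.048 (adjusted p = 2.9e-08 by edgeR) in Clrn1-/-Clrn2-/- mice, and the interaction was -0.03 ± 0.068 (adjusted p = 0.817 by edgeR), so that on the log2 scale the double mutant did not differ detectably from the sum of the single mutants. The muscle-type subunit Pfkm, the most abundant per length with 126 FPKM in wild-type, was at 409, 408 and 449 CPM there and at 315, 313 and 323 in Clrn1-/-Clrn2-/- mice, a log2 change of -0.41 ± 0.055 (adjusted p = 2.3e-05 by edgeR). In Clrn1-/- (371, 393 and 401 CPM) and Clrn2-/- mice (412, 373 and 358 CPM) Pfkm did not pass the test. The liver-type Pfkl had a log2 change of -0.15 ± 0.043 (adjusted p = 0.0137 by edgeR), and Pfkfb3, whose product makes the activator of phosphofructokinase, -0.34 ± 0.092 (adjusted p = 0.00803 by edgeR). Over all 11 genes of upper glycolysis 9 were lower by the adjusted p in double mutants and 2, Hk2 and Hk3, were higher. By that rule 17.9% of all genes tested were lower and 19.1% higher. Aldoa, Aldoc, Tpi1 and Gpi1, for the steps between, had log2 fold changes of -0.45 to -0.23 there, all past the adjusted p. The symbol Aldoa is shared by 2 overlapping gene models of the annotation used for lengths, so no level per length is given for it.

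**Figure D2:**
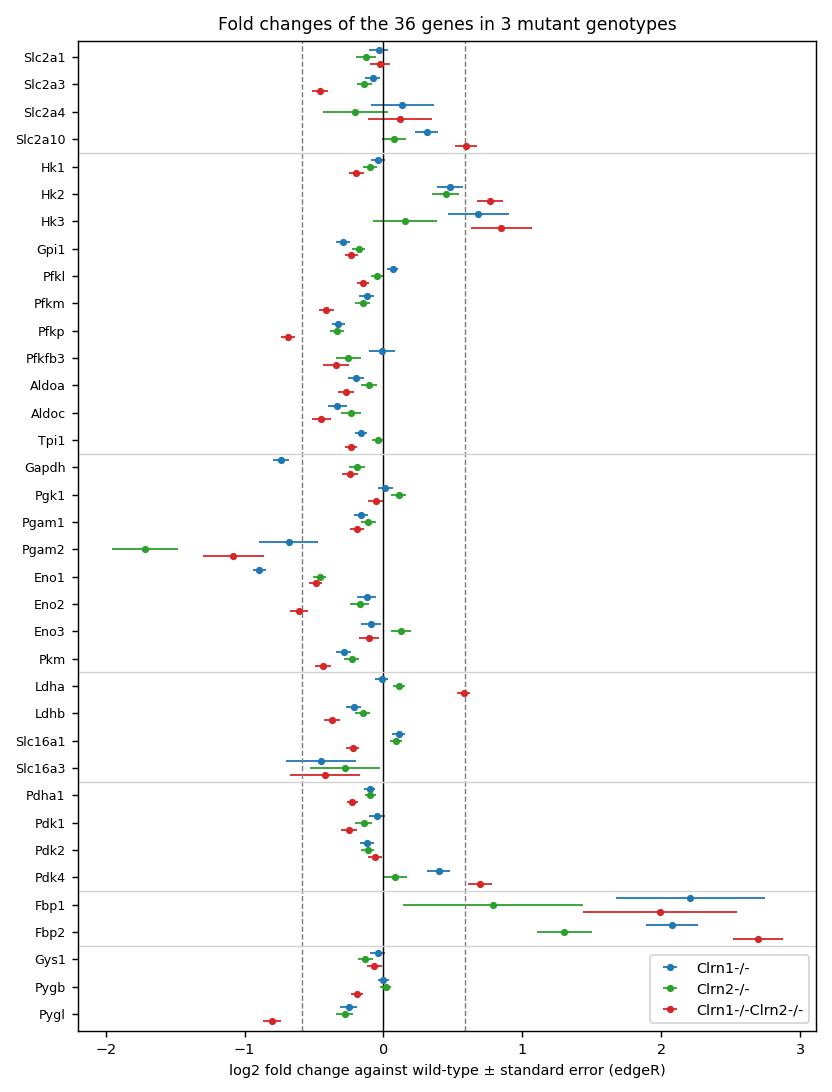
Log2 fold changes against wild-type (points, with edgeR standard errors as bars) of the 36 genes in Clrn1-/- (blue), Clrn2-/- (green) and Clrn1-/-Clrn2-/- (red) mice, ordered as in the heat map, with dashed lines at 1.5-fold. Most red points lie left of 0 and within the dashed lines, Fbp2 is far to the right in each mutant, and for Gapdh and Eno1 the blue point is the leftmost.

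The 8 genes from Gapdh to Pkm all had negative log2 fold changes in Clrn1-/-Clrn2-/- mice, with a median of -0.34. Of these 6 passed the adjusted p, where 17.9% of all genes tested were lower by that rule, Pgk1 and Eno3 being the exceptions. Enolase makes phosphoenolpyruvate. Its neuronal form Eno2 (chr6:124760053-124769673) was at 876, 906 and 1032 CPM in wild-type, 829, 863 and 894 in Clrn1-/-, 917, 795 and 787 in Clrn2-/- and 595, 622 and 629.5 in Clrn1-/-Clrn2-/- mice. The double mutant libraries were below all others, while both single mutants overlapped wild-type. Eno2 fell in the double mutant to 0.656 of the wild-type level, a log2 change of -0.61 ± 0.068 (adjusted p = 3.7e-06 by edgeR), with -0.12 ± 0.068 (adjusted p = 0.205 by edgeR) and -0.17 ± 0.068 (adjusted p = 0.107 by edgeR) in Clrn1-/- and Clrn2-/- mice and an interaction of -0.32 ± 0.096 (adjusted p = 0.033 by edgeR). Its change in the double mutant was just past 1.5-fold, at -0.55 without wild-type library 3 and -0.57 when libraries were scaled by size alone. Neuron markers fell along with Eno2. Their summed level was 12900 to 14200 CPM in wild-type, 11900 to 12400 in Clrn1-/-, 11300 to 13000 in Clrn2-/- and 9100 to 9270 in Clrn1-/-Clrn2-/- libraries, with 13 of 15 negative in the last, a median of -0.41 and none at 0. Among them the synaptic vesicle gene Snap25 had a log2 change of -0.73 ± 0.056 (adjusted p = 7.4e-08 by edgeR). In the study the stria vascularis and the modiolus were removed at dissection, and what stayed in each sample is not given. In bulk tissue, fewer cells of a type, less RNA per cell and differences in the dissected tissue cannot be told apart. The part of neurons in the result for Eno2 and the other genes was not tested.

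Pkm, for the pyruvate kinase that makes ATP and pyruvate, was at 1122, 1173 and 1216 CPM in wild-type, 907, 978 and 995 in Clrn1-/-, 1062, 993 and 939 in Clrn2-/- and 860.3, 852 and 882 in Clrn1-/-Clrn2-/- mice. All 9 mutant libraries were below the wild-type ones, and the double mutant ones were lowest. The log2 fold changes were -0.29 ± 0.055 (adjusted p = 0.00125 by edgeR) in Clrn1-/-, -0.23 ± 0.055 (adjusted p = 0.011 by edgeR) in Clrn2-/- and -0.44 ± 0.055 (adjusted p = 1.3e-05 by edgeR) in Clrn1-/-Clrn2-/- mice, all under 1.5-fold. Pgk1, for the first ATP-making step of the pathway, did not pass the test against wild-type, and in the double mutant it was at 203, 199 and 206 CPM against 204, 202 and 227.

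Gapdh and Eno1 changed most in Clrn1-/- mice. Gapdh (chr6:125161715-125166467), for the enzyme of the oxidising step and the reference gene of the PCR of the study, was at 1002, 1012 and 1063 CPM in wild-type, 558, 619 and 665 in Clrn1-/-, 932, 878 and 888 in Clrn2-/- and 843, 883 and 874 in Clrn1-/-Clrn2-/- mice. Eno1, for the enolase found in most cells (chr4:150236721-150248879), was at 508, 501 and 509 CPM in wild-type, 263, 282 and 271 in Clrn1-/-, 390.4, 367 and 347 in Clrn2-/- and 372, 357 and 352 in Clrn1-/-Clrn2-/- mice. For both genes every Clrn1-/- library lay below every library of the other genotypes, and the double mutant, which also lacks Clrn1, overlapped Clrn2-/-. Log2 fold changes in Clrn1-/- mice were -0.74 ± 0.059 (adjusted p = 2.6e-07 by edgeR) for Gapdh and -0.89 ± 0.048 (adjusted p = 3.3e-09 by edgeR) for Eno1, against -0.24 ± 0.058 (adjusted p = 0.00362 by edgeR) and -0.49 ± 0.047 (adjusted p = 8.2e-07 by edgeR) in Clrn1-/-Clrn2-/- mice. The interaction was 0.69 ± 0.082 (adjusted p = 5.0e-05 by edgeR) for Gapdh and 0.86 ± 0.067 (adjusted p = 9.5e-07 by edgeR) for Eno1, which places the double mutant above the sum of the single mutant changes.

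Both genes have copies elsewhere in the genome that nearly match their transcript, and the authors' counting kept reads that map to 1 place only, so the split of reads between a gene and its copies is uncertain. Of the transcripts with at least 95% identity over at least 300 bases, 76 other genes matched Gapdh and 3 matched Eno1. In Clrn1-/- libraries the copies of Gapdh took 11.5% to 14.4% of the counts of Gapdh and its copies, against 1.28% to 1.59% in the 9 libraries of the other genotypes. A single processed pseudogene, Gm13394 (chr2:28933610-28934609), held most of them, with 2567, 3003 and 2848 counts in Clrn1-/- libraries, beside 2, 4 and 6 in wild-type, 1, 4 and 4 in Clrn2-/- and 1, 3 and 1 in Clrn1-/-Clrn2-/- libraries. The copies of Eno1 took 12.1% to 16.8% in Clrn1-/- and 2.82% to 3.55% in the other libraries. Of these, the processed pseudogene Gm4735 (chr2:80837141-80838442) had 563, 851 and 979 counts in Clrn1-/- and 246 to 440 in the other libraries, and the gene Eno1b had 576, 878 and 1113 against 103 to 182. From which transcripts the reads at Gm13394 come was not tested, and the double mutant, with the same Clrn1 deletion, had hardly any, so the level of Gapdh in Clrn1-/- mice, its sum with copies and its interaction are uncertain.

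With the counts of the copies added, an alternative chosen after the data were seen, Gapdh and its copies summed to 1017, 1027 and 1081 CPM in wild-type, 651, 709 and 752 in Clrn1-/- and 857, 897 and 886 in Clrn1-/-Clrn2-/- mice. The log2 fold change of Gapdh in Clrn1-/- mice became -0.57 (adjusted p = 2.1e-06 by edgeR), under 1.5-fold, and its interaction 0.51 (adjusted p = 0.000297 by edgeR). Eno1 with its copies stayed called in Clrn1-/- mice, at -0.72 (adjusted p = 6.3e-08 by edgeR), with an interaction of 0.68 (adjusted p = 1.3e-05 by edgeR). Clrn1-/- libraries remained the lowest for both sums. Of the other 34 genes, 7 had such copies, which took at most 11.9% of the counts of gene and copies, in the case of Pgam1, with overlapping ranges in the 4 genotypes for Pgam1.

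**Figure D3:**
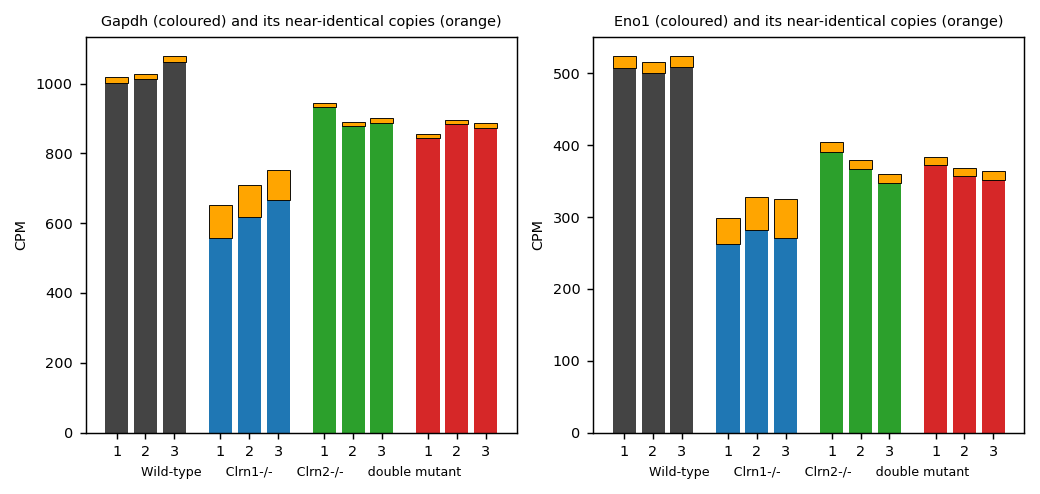
Level in CPM of Gapdh (left) and Eno1 (right) in each library, as stacked bars with the gene itself in the colour of its genotype and its near-identical copies in orange. The orange part is 86.6 to 93.8 CPM for Gapdh in the 3 Clrn1-/- libraries and 11.4 to 17.1 CPM in the other 9, and the full Clrn1-/- bars stay below those of the other genotypes.

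Pgam2, the muscle form of phosphoglycerate mutase (chr11:5801640-5803733), was a gene of low level. It was at 1.63, 2.25 and 1.7 CPM in wild-type, 1.01, 1.37 and 1.06 in Clrn1-/-, 0.377, 0.704 and 0.618 in Clrn2-/- and 0.951, 0.862 and 0.825 in Clrn1-/-Clrn2-/- mice, and its wild-type libraries overlapped with no mutant group. Log2 fold changes of -0.68 ± 0.21 (adjusted p = 0.0258 by edgeR), -1.72 ± 0.24 (adjusted p = 0.000184 by edgeR) and -1.08 ± 0.22 (adjusted p = 0.00117 by edgeR) were called in Clrn1-/-, Clrn2-/- and Clrn1-/-Clrn2-/- mice, but they rest on 482 counts over all 12 libraries, while 1186 counts lay on the opposite strand at the same place. With unstranded counts the log2 fold changes were -0.13 (adjusted p = 0.524 by edgeR), -0.56 (adjusted p = 0.0127 by edgeR) and -0.51 (adjusted p = 0.00921 by edgeR), none reaching 1.5-fold. Most unstranded counts came from the opposite strand, which dilutes a change on the gene's own strand, so these values cannot settle it. The call in Clrn1-/- mice was also lost without wild-type library 2 or Clrn1-/- library 1 or 3, at -0.62 to -0.52. Skeletal muscle markers summed to 29.9 to 31.7 CPM in wild-type, 27 to 27.9 in Clrn1-/-, 18.9 to 20.8 in Clrn2-/- and 22.3 to 23.3 in Clrn1-/-Clrn2-/- libraries, the same order of genotypes as for Pgam2, with 10 of the 14 markers under 1 CPM in every library and none at 0 throughout. Their part in the Pgam2 result was not tested.

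Lactate dehydrogenase is a tetramer of A chains, which favour lactate formation, and B chains, which favour its oxidation, made by Ldha and Ldhb. Among the genes of the set with a level per length, which leaves out Aldoa, Ldhb had the highest, at 588 FPKM in wild-type. Aldoa had more CPM than Ldhb in wild-type, at 1378, 1368 and 1463. Ldhb was at 902, 899 and 970.1 CPM in wild-type, 790.2, 775 and 822 in Clrn1-/-, 907, 801 and 789 in Clrn2-/- and 705, 705 and 731 in Clrn1-/-Clrn2-/- mice. Ldha was at 99.2, 96.9 and 102 CPM in wild-type, 104, 91.8 and 100.2 in Clrn1-/-, 109.6, 105 and 107 in Clrn2-/- and 146, 148 and 151 in Clrn1-/-Clrn2-/- mice. The double mutant was thus below wild-type for Ldhb and above all other genotypes for Ldha, each without overlap with wild-type. In Clrn1-/-Clrn2-/- mice Ldhb had a log2 change of -0.37 ± 0.056 (adjusted p = 7.1e-05 by edgeR) and Ldha 0.58 ± 0.045 (adjusted p = 8.0e-08 by edgeR), or 1.49-fold, just short of 1.5-fold, which it passed at 0.59 without double mutant library 1 and at 0.62 with libraries scaled by size alone. In the single mutants Ldha did not pass the test, with -0.01 ± 0.045 (adjusted p = 0.871 by edgeR) in Clrn1-/- and 0.11 ± 0.045 (adjusted p = 0.109 by edgeR) in Clrn2-/- mice. The interaction, 0.48 ± 0.063 (adjusted p = 0.000114 by edgeR), passed the adjusted p but not 1.5-fold. As a share of the summed FPKM of both genes, Ldha went from 4.85% ± 0.1 (SD, n = 3) in wild-type to 5.54% ± 0.28 and 5.78% ± 0.33 (SD, n = 3 each) in Clrn1-/- and Clrn2-/- and 8.96% ± 0.062 (SD, n = 3) in Clrn1-/-Clrn2-/- mice. Of the monocarboxylate carriers, Slc16a1 (MCT1) was lower in double mutants, -0.22 ± 0.046 (adjusted p = 0.00127 by edgeR), with an interaction of -0.42 ± 0.065 (adjusted p = 0.000389 by edgeR). Slc16a3 (MCT4, the carrier of lactate-exporting cells) stayed at 0.957 to 2.11 CPM in the 12 libraries and passed no test.

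The bases before the start sites of Ldha and Ldhb and of Hk2 and Hk1 are shown, as 2 examples of isoenzymes that moved oppositely, chosen after their matches to a short motif were seen. Pdk1 and Pdk4, which also moved oppositely, held no ACGTG in any window, and Slc2a3, the opposite of Slc2a10, had no window. The bases shown are the 250 bases upstream of each RefSeq start on GRCm38.p6, 5' to 3', with capitals marking ACGTG and GCGTG on either strand (read as CACGT and CACGC on the other), the core of the hypoxia response element. Ldha and Hk1 have more than 1 start, and all are shown. The windows lie, in the order printed, at chr7:46845554-46845803, plus strand, chr7:46846832-46847081, plus strand, chr6:142507958-142508207, minus strand, chr6:82774455-82774704, minus strand, chr10:62340422-62340671, minus strand and chr10:62379909-62380158, minus strand.
Ldha, upstream start: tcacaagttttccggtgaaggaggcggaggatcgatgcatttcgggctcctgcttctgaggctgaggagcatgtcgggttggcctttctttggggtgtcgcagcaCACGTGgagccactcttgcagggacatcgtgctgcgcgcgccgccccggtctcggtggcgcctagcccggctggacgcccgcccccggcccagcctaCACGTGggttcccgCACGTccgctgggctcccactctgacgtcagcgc
Ldha, downstream start: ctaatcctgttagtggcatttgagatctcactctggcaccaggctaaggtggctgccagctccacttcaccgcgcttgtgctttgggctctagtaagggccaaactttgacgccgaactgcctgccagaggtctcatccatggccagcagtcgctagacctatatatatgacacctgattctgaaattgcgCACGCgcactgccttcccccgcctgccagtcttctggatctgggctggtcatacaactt
Ldhb: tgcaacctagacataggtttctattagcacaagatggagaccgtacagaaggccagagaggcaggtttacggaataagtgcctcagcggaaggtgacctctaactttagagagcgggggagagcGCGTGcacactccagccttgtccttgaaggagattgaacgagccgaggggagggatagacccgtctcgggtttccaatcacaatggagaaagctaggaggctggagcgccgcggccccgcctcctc
Hk2: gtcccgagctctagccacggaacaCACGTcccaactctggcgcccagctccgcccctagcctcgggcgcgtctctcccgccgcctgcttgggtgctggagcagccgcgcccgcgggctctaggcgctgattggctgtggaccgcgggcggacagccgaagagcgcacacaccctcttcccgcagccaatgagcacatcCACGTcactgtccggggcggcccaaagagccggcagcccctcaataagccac
Hk1, downstream start: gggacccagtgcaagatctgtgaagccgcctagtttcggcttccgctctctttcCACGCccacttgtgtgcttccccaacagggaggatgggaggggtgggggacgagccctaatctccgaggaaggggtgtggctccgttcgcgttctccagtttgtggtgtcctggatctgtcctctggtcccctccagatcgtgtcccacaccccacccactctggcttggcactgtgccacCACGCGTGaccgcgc
Hk1, upstream start: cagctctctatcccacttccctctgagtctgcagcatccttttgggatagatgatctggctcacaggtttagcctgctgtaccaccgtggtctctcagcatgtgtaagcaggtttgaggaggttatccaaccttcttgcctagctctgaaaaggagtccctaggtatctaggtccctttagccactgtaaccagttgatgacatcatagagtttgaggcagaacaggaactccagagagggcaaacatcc

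The upstream Ldha window held 5 matches to ACGTG, 4 of them as both strands of 2 CACGTG E-boxes, and Hk2 held 2, while Ldhb and both Hk1 windows held none. The downstream Hk1 window held 2 matches to ACGTG in the next 50 bases, inside the transcript and not printed, so that with these bases it had as many as Hk2. GCGTG occurred 1 time each in Ldhb and in the downstream Ldha window, 3 times in the downstream Hk1 window and not in Hk2. Over the wider windows that add the first 50 bases of the transcript, either core was present in 28 of the 34 genes of the set with a window (82.4%), beside 46.7% of 27025 genes in all. The single motifs were in 58.8% against 21.8% for ACGTG, 55.9% against 35.2% for GCGTG and 17.6% against 8.09% for CACGTG. These motifs hold a CG pair, and the windows of the set had a median G and C content of 60.7% beside 52.7% for all windows. A match is a string of letters and not a measured binding site. Of 17 other genes listed as targets of hypoxia-inducible factors, 16 were tested, with a median log2 fold change of 0.054 in Clrn1-/-Clrn2-/- mice and 1 call, Egln3, which was lower (-0.59 ± 0.16 (adjusted p = 0.00835 by edgeR)).

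**Figure D4:**
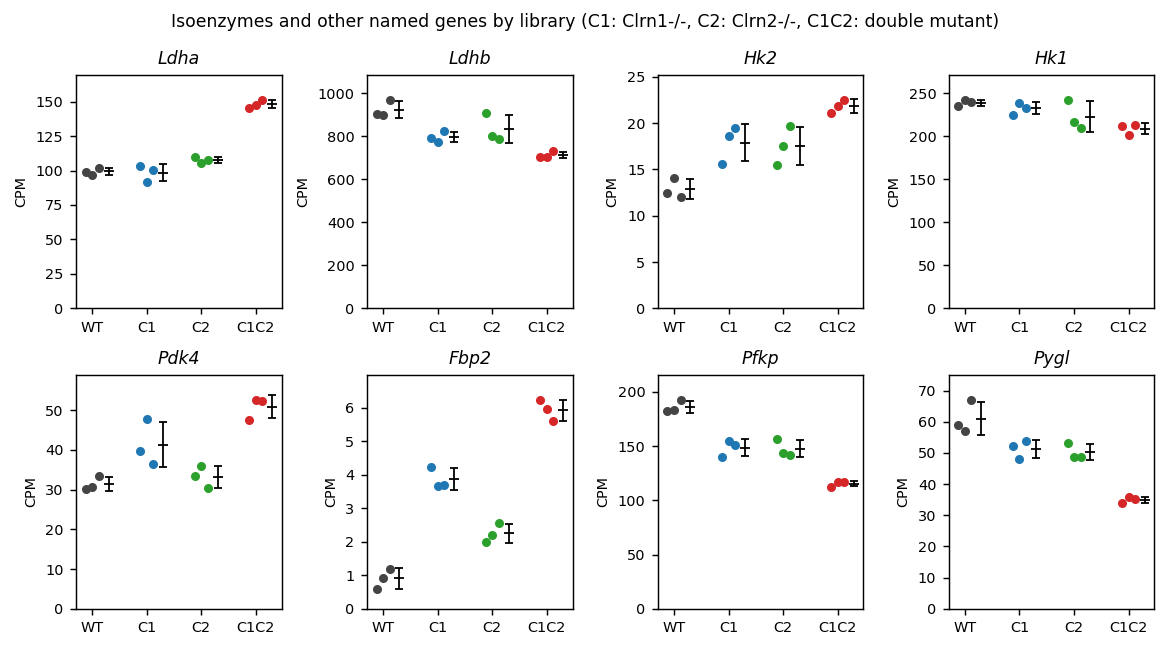
Level in CPM (axes from 0) of 8 genes in each library, with points for libraries and a bar for the mean ± SD beside them, in wild-type (WT), Clrn1-/- (C1), Clrn2-/- (C2) and double mutant (C1C2) mice. Ldha rises in the double mutant alone to 146 to 151 CPM while Ldhb falls, Hk2 rises in each mutant, and Fbp2 takes a separate level in each of the 4 genotypes.

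Pyruvate dehydrogenase sends pyruvate into the citric acid cycle, and its kinases switch it off. Pdha1, for its catalytic subunit, was lower in Clrn1-/-Clrn2-/- mice -0.23 ± 0.04 (adjusted p = 0.000344 by edgeR), and so was Pdk1, -0.25 ± 0.059 (adjusted p = 0.00349 by edgeR). Pdk4, the kinase known to rise on fasting (chr6:5483351-5496309), went the other way. It was at 30.2, 30.6 and 33.4 CPM in wild-type, 39.8, 47.6 and 36.5 in Clrn1-/-, 33.4, 35.8 and 30.4 in Clrn2-/- and 47.6, 52.5 and 52.4 in Clrn1-/-Clrn2-/- mice. Clrn1-/- and Clrn1-/-Clrn2-/- libraries were above wild-type without overlap, and Clrn2-/- libraries overlapped it. The log2 fold change was 0.70 ± 0.085 (adjusted p = 9.2e-06 by edgeR) in the double mutant, 0.40 ± 0.086 (adjusted p = 0.00282 by edgeR) in Clrn1-/- and 0.08 ± 0.086 (adjusted p = 0.605 by edgeR) in Clrn2-/- mice. Among the 3 kinases Pdk4 took 21.8% ± 1.5 (SD, n = 3) of the FPKM in wild-type and 32.5% ± 1.8 (SD, n = 3) in double mutants. Pdk2, the most abundant of them, passed no test against wild-type.

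Fructose bisphosphatase runs the phosphofructokinase step in reverse, and its genes lie next to each other (chr13:62836877-62858422 and chr13:62864753-62888282, 6330 bases apart, on the same strand). Fbp2, the form of muscle, rose in every mutant, by more than any other gene of the set in Clrn2-/- and Clrn1-/-Clrn2-/- mice. It was at 0.59, 0.931 and 1.19 CPM in wild-type, 1.99, 2.2 and 2.56 in Clrn2-/-, 4.24, 3.67 and 3.69 in Clrn1-/- and 6.23, 5.94 and 5.59 in Clrn1-/-Clrn2-/- mice. The 4 genotypes did not overlap. The rise was 2.46-fold in Clrn2-/- (1.30 ± 0.2 on the log2 scale, edgeR adjusted p = 0.000389), 4.22-fold in Clrn1-/- (2.08 ± 0.19, edgeR adjusted p = 1.1e-06) and 6.47-fold in Clrn1-/-Clrn2-/- mice (2.69 ± 0.18, edgeR adjusted p = 1.9e-08). Each of the 6 pairs of genotypes was called, and the step from Clrn1-/- to Clrn1-/-Clrn2-/- mice, 0.62 ± 0.15 (adjusted p = 0.0055 by edgeR), was at 0.57 and under 1.5-fold without Clrn1-/- library 2 or 3 or double mutant library 1. The interaction was -0.69 ± 0.25 (adjusted p = 0.0733 by edgeR). Even at its highest Fbp2 had 4.03 FPKM, against 588 for Ldhb in wild-type.

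Fbp1, the form of liver and kidney, was counted 3, 6 and 0 times in wild-type libraries, 13, 16 and 13 times in Clrn1-/-, 5, 4 and 6 times in Clrn2-/- and 13, 9 and 12 times in Clrn1-/-Clrn2-/- libraries. A count of 0 allows up to 3 counts, or 0.0759 CPM in that library, for counting error only. All libraries of Clrn1-/- and double mutant mice were above those of wild-type and Clrn2-/- mice. Its calls, 2.21 ± 0.54 (adjusted p = 0.00627 by edgeR) in Clrn1-/- and 1.99 ± 0.56 (adjusted p = 0.00998 by edgeR) in Clrn1-/-Clrn2-/- mice, rest on these few reads, and while no library left out ended them, they became 3.17 and 2.94 without wild-type library 2 and 1.60 and 1.37 without wild-type library 3.

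Glycogen phosphorylase releases glucose from glycogen. The liver form Pygl (chr12:70190811-70231488) was at 59, 56.9 and 67 CPM in wild-type, 52.2, 48.1 and 53.7 in Clrn1-/-, 53.3, 48.8 and 48.7 in Clrn2-/- and 33.8, 35.9 and 35.1 in Clrn1-/-Clrn2-/- mice. All single mutant libraries were below wild-type and above the double mutant. Pygl changed on the log2 scale by -0.80 ± 0.064 (adjusted p = 1.1e-07 by edgeR) in Clrn1-/-Clrn2-/- mice, with -0.25 ± 0.062 (adjusted p = 0.00761 by edgeR) and -0.28 ± 0.062 (adjusted p = 0.00705 by edgeR) in Clrn1-/- and Clrn2-/- mice. The brain form Pygb, at 55.9 FPKM the main one of the set, had a log2 change of -0.19 ± 0.043 (adjusted p = 0.00234 by edgeR) in double mutants and passed no test in the single mutants. The share of Pygl in the FPKM of both went from 13.7% ± 1 (SD, n = 3) in wild-type to 9.4% ± 0.66 (SD, n = 3) in Clrn1-/-Clrn2-/- mice. Gys1, for the synthase that builds glycogen outside the liver, was at 24.8 to 29.8 CPM in the 12 libraries and passed no test.

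Compared with each other, the mutants differed in few of these genes at 1.5-fold. Clrn1-/-Clrn2-/- against Clrn1-/- mice gave 2 calls (5.56%, beside 7.23% of all genes), both higher, Ldha with 0.59 ± 0.045 (adjusted p = 1.5e-07 by edgeR) and Fbp2. The Ldha call was lost in 8 of the 12 fits that left a library out, at 0.53 to 0.58. Clrn1-/-Clrn2-/- against Clrn2-/- mice gave 3 calls (8.33%, beside 5.1%), all higher, Fbp2, Pdk4 with 0.62 ± 0.085 (adjusted p = 8.1e-05 by edgeR) and Hk3 with 0.69 ± 0.22 (adjusted p = 0.0272 by edgeR). The Pdk4 call fell under 1.5-fold without Clrn2-/- library 3 or double mutant library 2 or 3, at 0.54 to 0.58, and that of Hk3 was lost without Clrn2-/- library 1 or 2 or double mutant library 1 or 2, at 0.54 to 0.70. Clrn1-/- against Clrn2-/- mice gave 2 calls (5.56%, beside 4.73%), both higher in Clrn1-/-, Fbp2 and Pgam2, the latter lost with unstranded counts and without Clrn1-/- library 2. By the adjusted p alone the counts were 20 (55.6%, beside 30.4% of all genes), 21 (58.3%, beside 27.6%) and 6 (16.7%, beside 18.5%). Of the 20, 13 were lower in the double mutant than in Clrn1-/- mice, and of the 21, 15 were lower than in Clrn2-/- mice, 2 comparisons that share the double mutant libraries.

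The interaction asks whether the double mutant differs from the sum of both single mutant changes on the log2 scale. It was called for 3 genes (8.33%, beside 5.5% of all genes), Gapdh, Eno1 and Pgam2, all positive. Of these, Gapdh fell under 1.5-fold with its copies added, at 0.51 (adjusted p = 0.000297 by edgeR). Pgam2 no longer passed the test with unstranded counts, most of them from the opposite strand, at 0.19 (adjusted p = 0.579 by edgeR). By the adjusted p alone 10 genes passed (27.8%, beside 17.4%). Gpi1 and Ldha were positive as well, while Slc2a3, Eno2, Slc16a1, Pygb and Pygl were negative, from -0.42 to -0.21, so that they were lower in Clrn1-/-Clrn2-/- mice than the single mutants add up to.

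Other genes of glucose and energy metabolism, from lists outside the set, were called in both directions, to be read beside the 5.88% of all genes called higher and the 4.02% called lower in Clrn1-/-Clrn2-/- mice. There 2 of 7 tested hexose carriers were called higher and 1 lower, among them Slc2a9, for a urate and hexose carrier (0.62 ± 0.15 (adjusted p = 0.00364 by edgeR)), and Slc2a6 (-0.63 ± 0.086 (adjusted p = 2.9e-05 by edgeR)). Slc5a1, for a sodium-coupled glucose carrier, was the third but had at most 0.567 CPM. Of 12 tested regulators and further enzymes of glycolysis and gluconeogenesis 2 were called lower, Gckr, at about 1 CPM, and Tigar, whose product lowers the activator of phosphofructokinase. Tigar was at 36.6, 36.5 and 38.4 CPM in wild-type, 22.8, 24.9 and 24.1 in Clrn1-/-, 32.8, 33.7 and 30.8 in Clrn2-/- and 24.2, 25.8 and 23.4 in Clrn1-/-Clrn2-/- mice, with -0.60 ± 0.057 (adjusted p = 6.0e-07 by edgeR) in the last. Of 25 tested glycogen genes outside the set 1 was called higher and 2 lower, few enough to be near those shares, with 12 lower by the adjusted p alone, where 17.9% of all genes were. Pygm, for the muscle form of glycogen phosphorylase, had a larger fall than any gene of the set with over 1 CPM in every library. It was at 74.6, 72.3 and 67.4 CPM in wild-type, 26.1, 31.4 and 28.3 in Clrn1-/-, 42.1, 42.6 and 40.3 in Clrn2-/- and 27.5, 25 and 23.2 in Clrn1-/-Clrn2-/- mice, with log2 fold changes of -1.32 ± 0.069 (adjusted p = 3.1e-09 by edgeR), -0.78 ± 0.068 (adjusted p = 3.4e-06 by edgeR) and -1.50 ± 0.07 (adjusted p = 4.5e-10 by edgeR). The 14 skeletal muscle markers together had 29.9 to 31.7 CPM in wild-type, less than Pygm alone there. Ppp1r3e, which targets a phosphatase to glycogen, was lower in mice without Clrn1, at -0.86 ± 0.1 (adjusted p = 1.7e-05 by edgeR) in Clrn1-/- and -0.95 ± 0.1 (adjusted p = 2.9e-06 by edgeR) in Clrn1-/-Clrn2-/- mice, against 0.11 ± 0.097 (adjusted p = 0.532 by edgeR) in Clrn2-/- mice. Stbd1, for a glycogen-binding protein, was higher in Clrn1-/-Clrn2-/- mice (0.71 ± 0.17 (adjusted p = 0.00394 by edgeR)) and more so in Clrn1-/- mice (1.41 ± 0.16 (adjusted p = 1.5e-05 by edgeR)).

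Of the 8 tested genes of the pentose phosphate pathway, which branches off after hexokinase, 0 were called in Clrn1-/-Clrn2-/- mice by edgeR, limma-voom or DESeq2, while 5 had an unadjusted p under 0.05 and 4 were higher by the adjusted p alone in edgeR, with a median of 0.14 over the 8. Their summed level was 570 to 582 CPM in wild-type and 644 to 651 in double mutant libraries. Of 14 tested genes of pyruvate and lactate handling outside the set the same tools also called 0, with 9 at an unadjusted p under 0.05 and 7 lower and 1 higher by the adjusted p alone in edgeR. Of 14 genes of fatty acid oxidation and PPAR targets 1 was called, Cpt1b (-0.69 ± 0.18 (adjusted p = 0.00714 by edgeR)), and the median was 0.028. Markers of supporting cells, at 1790 to 1940 CPM in wild-type and 2570 to 2740 in double mutant libraries, rose in 6 of 8 by the adjusted p, and those of hair cells in 5 of 10, while the neuron markers fell in 10 of 15, beside 19.1% of all genes higher and 17.9% lower by that rule. Myelin markers of Schwann cells were at 21700 to 22900 CPM in wild-type and 20700 to 22200 in double mutant libraries. Fibroblast markers were at 8180 to 10100 CPM in wild-type, 6210 to 6810 in Clrn1-/-, 6070 to 6510 in Clrn2-/- and 8380 to 9710 in double mutant libraries. Red blood cell markers were at 710 to 1160 CPM in wild-type, 286 to 389 in Clrn1-/-, 438 to 657 in Clrn2-/- and 547 to 738 in Clrn1-/-Clrn2-/- libraries. In Clrn1-/- mice 6 of 7 were called lower (3.7% of all genes there). Immediate-early genes were at 239 to 256 CPM in wild-type and 388 to 405 in Clrn1-/-Clrn2-/- libraries, with 7 of 9 called higher (5.88% of all genes there). The part of these cell types in the levels of the glucose genes was not tested.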

How the data were processed

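Polyadenylated RNA of 12 organ of Corti samples was sequenced as strand-specific paired reads of 100 bases. The authors aligned them with STAR (version not given in the sources used here) to GRCm38.p6 and deposited raw counts per gene of Gencode M24, with no scaling or filter, for 3 strand settings. Here the setting that fits the directional kit was taken, with 30008679 to 41049302 counts per library. DESeq2 is also named in the submitters' processing notes. Reads not assigned to a gene, 13.5% to 15.8% of each total, were left out. Genotypes and replicate numbers follow the labels.

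Analysis used R 4.3.3 and edgeR 4.0.16. Genes were filtered with filterByExpr (minimum count 10) and libraries scaled by TMM. A single fit by genotype held all 12 libraries. Mutants were compared with wild-type and with each other, and the interaction of Clrn1 and Clrn2 was tested, by the quasi-likelihood test with Benjamini-Hochberg adjustment over 19052 genes. Standard errors come from the test statistic. The script was tested on simulated data. Exon lengths and coordinates are those of Gencode M21, an older release for this build, and start regions those of the RefSeq table for GRCm38.p6. Near-identical copies were found with blastn 2.17.0 among the transcripts of Gencode M21, at 95% identity over 300 bases, a limit set with the data in view.

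The 36 genes and all lists were chosen with earlier results of these data known. Values per library are given for genes called in any comparison, the 5 highest per length in wild-type, Gapdh, and the 5 largest changes past the adjusted p in each comparison with wild-type. Genes of other lists are named where called, up to 3 per direction, in double mutants.

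The alternatives tried were DESeq2 1.42.0, limma-voom (limma 3.58.1), scaling by total counts only, testing every gene with a count, testing genes that reached an FPKM of 0.1 in some library, fitting only the genotypes at hand, a block for the replicate number, dropping the fold minimum, counting both strands, and omitting each library once. A block within the genotypes at hand, and adding the counts of copies to the gene, were tried with the data in view. Genotypes share replicate numbers, and what a number stands for is not given. As a check of pairing over 12453 genes (mean CPM of 5 or more), deviations of same-numbered libraries from their group means were correlated. The lowest value was 0.111 for wild-type with Clrn1-/- and between -0.279 and 0.0292 for the other pairs of genotypes. Only the first was above 0.1, the limit set here. Libraries of unlike numbers were not correlated, so a pairing by number was not established for any genotypes. Protein sequences were not used here.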

Additional observations from a re-analysis of the deposited data

Results flagged for a closer look

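Changes in Clrn1-/- mice that were not the same on a Clrn2-/- background were found for Gapdh, Eno1 and Pgam2, each by the interaction term of the edgeR fit. The interaction was 0.69 on the log2 scale for Gapdh (adjusted p = 5.0e-05), 0.86 for Eno1 (adjusted p = 9.5e-07) and 1.32 for Pgam2 (adjusted p = 0.0133). With near-identical copies added, those of Gapdh and Eno1 were 0.51 and 0.68, the first under 1.5-fold. With unstranded counts, most of them from the opposite strand, that of Pgam2 was 0.19 and no longer passed the test (adjusted p = 0.579 by edgeR).

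Counts on the strand opposite to the gene, which entered only the alternative with unstranded counts, exceeded 10% of the stranded counts for 3 of the 36 genes. They were 71.1% for Pgam2, 25.7% for Slc16a3 and 16.7% for Fbp1. For Pgam2 they were 90 to 122 per library in wild-type, 97 to 130 in Clrn1-/-, 85 to 96 in Clrn2-/- and 77 to 91 in Clrn1-/-Clrn2-/- mice.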

How the results depend on the processing

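No count or median of the set changed its direction. Of 138 values of main results under alternatives other than leaving out a library, 125 stayed in place, and of 156 with a library left out, 144 did. Without a fold minimum the over-expressed genes became 6 in Clrn1-/- and 2 in Clrn2-/- mice, the under-expressed ones 12 and 8 in these single mutants and 22 in the double mutant, and the calls 20 for the double mutant against Clrn1-/-, 21 against Clrn2-/-, 6 for Clrn1-/- against Clrn2-/- and 10 for the interaction, since the rule is looser. Scaling by library size alone moved the medians to -0.041 in Clrn1-/- and -0.18 in Clrn1-/-Clrn2-/- mice, and the cause was not tested. With unstranded counts 0 genes were under-expressed in Clrn2-/- mice by edgeR, where 17 were lower at an unadjusted p under 0.05 and 8 by the adjusted p alone, and without the filter on low counts 1 gene was called for the double mutant against Clrn1-/-. With a library left out, calls ranged from 1 to 2 for the double mutant against Clrn1-/-, from 1 to 4 against Clrn2-/- and from 1 to 3 for Clrn1-/- against Clrn2-/-. Of 1082 values of named genes under the other alternatives 1064 stayed in place, and of 1344 with a library left out 1283 did. The 25 changes of sign were of 10 log2 fold changes of 8 genes, none past the test in either fit, with an adjusted p of 0.548 or more by edgeR. With a library left out, Clrn1-/- against Clrn2-/- ranged from -0.06365 to 0.1168 for Hk2, -0.006275 to 0.07358 for Pygl, -0.02112 to 0.05097 for Pfkp and -0.01739 to 0.07769 for Pfkm, the interaction from -0.1427 to 0.2275 for Hk3, -0.08889 to 0.0136 for Pfkp and -0.06274 to 0.05837 for Ldhb, Hk3 in Clrn2-/- mice from -0.0746 to 0.3116, Ldha in Clrn1-/- mice from -0.04526 to 0.04147 and Eno1 in the double mutant against Clrn2-/- from -0.08671 to 0.006606. Scaling by library size alone gave -0.02558 for the interaction of Hk3 and 0.03187 for the change of Ldha in Clrn1-/- mice. The cause was not tested.

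With the replicate number as a block, in the fit of all 12 libraries, the genes called were the main ones in every comparison, among them 3 over-expressed and 3 under-expressed in Clrn1-/- against wild-type. In fits of the compared genotypes alone, with or without the block, Fbp1 was not among the genes tested in Clrn1-/-Clrn2-/- against wild-type mice and was called between Clrn1-/- and Clrn2-/- mice, at 1.42 on the log2 scale. Hk3 kept its call in Clrn1-/- mice in such a fit with the block and not without it.

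Of the 54 changes of side among named genes, 11 were of Ldha, 9 each of Hk3 and Pgam2, 6 of Fbp1, 5 each of Fbp2 and Slc2a10, 3 each of Gapdh and Pdk4, 2 of Eno2 and 1 of Pygl. With 3 libraries per genotype, the 17 genes at 100 CPM or more in wild-type had standard errors of 0.0401 to 0.071 on the log2 scale against wild-type, and Fbp1 of 0.536 to 0.65.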
